A study of Mus musculus with 15 samples.

Results

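The receptors described here are those through which vessel-wall cells sense peptides, amines and prostanoids that narrow or widen vessels. The 9 listed genes were Ednra, Ednrb, Agtr1a, Adra2a, Htr1b, Ptgir, Tbxa2r, Calcrl and Ramp1, and every probe set that the platform annotation gives to 1 of these symbols was taken. This gave 14 probe sets of 45101 for 7 of the 9 genes. No probe set carried Ednra or Adra2a in the annotation used, and the expression of both genes was not analysed here.

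Expression was measured on 15 Affymetrix arrays of RNA from male C57BL6J mice aged 10 to 12 weeks. Mural cells of brain vessels (smooth muscle cells and pericytes) were isolated by FACS in 5 Notch3 -/- mice (arrays A, B, C, D and F) and 4 Notch3 +/- mice (arrays E, G, I and H). Aorta explants, which hold the whole tissue rather than a sorted population, gave 3 Notch3 -/- arrays (5558, 5559 and 6167) and 3 Notch3 +/- arrays (5556, 5561 and 6166). Each mouse in every group carried at least 1 disrupted Notch3 allele, so the Notch3 +/- arrays served as the comparison and no wild-type array was analysed. The labels do not give how Notch3 was disrupted, how the sort was gated, or whether each aorta array came from a separate mouse, so p-values measure the spread between arrays. Values are probe-set intensities, which the authors had brought to a common target of 150.

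These receptors are coupled to G proteins, apart from Ramp1, which encodes a single-pass partner protein. Endothelin, angiotensin II, serotonin and thromboxane A2 chiefly contract vascular smooth muscle through such receptors, whereas prostacyclin and calcitonin gene-related peptide relax it by raising cyclic AMP. Ednrb encodes the endothelin B receptor, Agtr1a the angiotensin II type 1a receptor, Htr1b the serotonin 1B receptor that triptan drugs target, Ptgir the prostacyclin receptor and Tbxa2r the thromboxane A2 receptor. Calcrl encodes the calcitonin receptor-like receptor, which with the protein of Ramp1 forms the receptor for calcitonin gene-related peptide and with its other partners binds adrenomedullin.

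The targeted gene followed the labels. Notch3 at 1421965_s_at had 150 to 249 in Notch3 -/- brain arrays, against 2326 to 2805 in Notch3 +/- brain arrays, and 80.1 to 146 in Notch3 -/- aorta, against 362 to 453 in Notch3 +/- aorta. Whether these probes lie in the disrupted part is not stated by the labels. Arrays of 1 group correlated at r between 0.932 and 0.981. The sorted brain cells carried markers of other cells besides the labelled ones: the summed intensity of 7 measured endothelial markers was 35796 to 45364 in Notch3 -/- and 32897 to 41912 in Notch3 +/- brain arrays, and that of 5 oligodendrocyte markers 27818 to 39892 and 23779 to 34405. In aorta the endothelial sum was 1457 to 1669 in Notch3 -/- and 1521 to 1641 in Notch3 +/- arrays. Slco1a4 and Cldn5 were the brightest endothelial markers in brain, averaging 18528 and 15019 in Notch3 -/-. Pecam1 ran the other way, averaging 90.0 in Notch3 -/- and 99.5 in Notch3 +/- brain, against 396 and 378 in aorta. Of the oligodendrocyte markers, Mbp averaged 23104 and Mobp 11117 in Notch3 -/- brain, and Mog under 50 in both brain groups. The 6 smooth muscle markers summed to 11336 to 18732 in Notch3 -/- and 22391 to 38939 in Notch3 +/- brain arrays, without overlap. Myocd, the smooth muscle cofactor among them, averaged under 50 in both brain groups. Aorta array 5556 (Notch3 +/-) stood apart from the other aorta arrays in brain-type markers, with 438 for the oligodendrocyte sum against 87.9 to 121 in the other 5 and 668 for the neuron sum against 169 to 229. Results that use this array are given with and without it where its absence changed them.

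**Figure D1:**
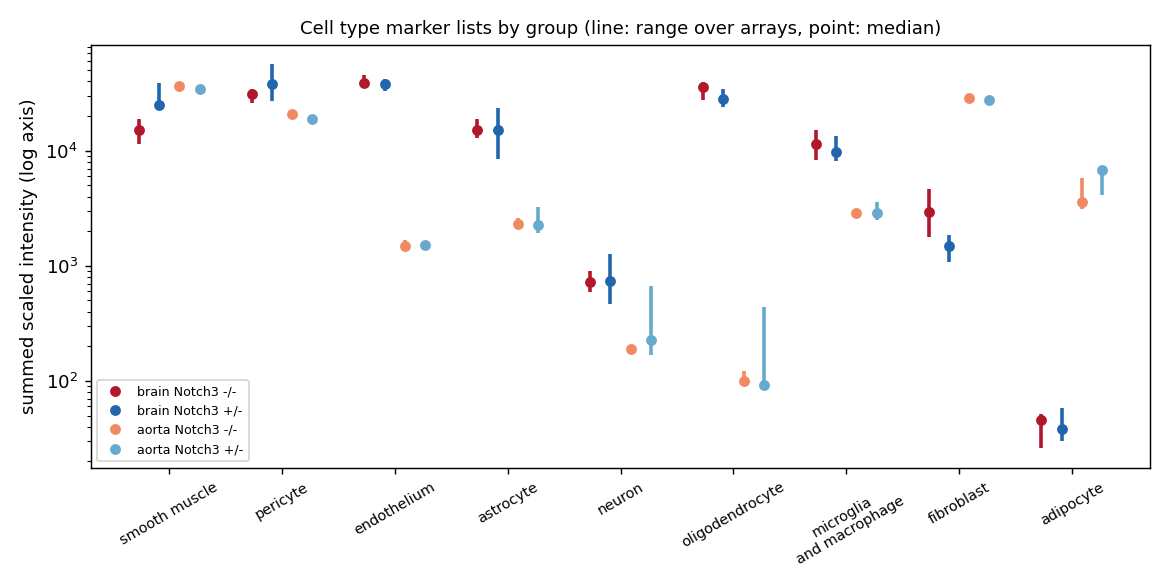
Summed scaled intensity of marker genes (log axis) for each cell type in the 4 groups, with the median (point) and the range (line) over arrays. Smooth muscle sums of Notch3 -/- brain arrays (11336 to 18732) lay below all Notch3 +/- brain arrays (22391 to 38939), and endothelial and oligodendrocyte sums were higher in brain than in aorta.

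The receptors differed by tissue more than by Notch3 genotype, as probe sets did in general. Of all probe sets tested, 62.5% in Notch3 -/- and 51.8% in Notch3 +/- passed limma's test between tissues. Between genotypes, 0.142% passed in brain cells and 0% in aorta. Ednrb (1437347_at and 1423594_a_at) and Ptgir were higher in brain cells than in aorta in both genotypes, and Htr1b (1442077_at) and Ramp1 (1417481_at and 1431413_at) were lower. Other probe sets of these genes differed. Ednrb 1426314_at passed in neither genotype, and Htr1b 1422288_at and Ramp1 1447474_at were higher in brain and passed in Notch3 -/-. No receptor probe set passed the test between genotypes in either tissue.

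In Notch3 -/- arrays, 9 of 12 probe sets tested passed limma's test of brain against aorta at an adjusted p of 5%, 5 higher and 4 lower in brain, where 33.6% of all 22519 probe sets tested were higher and 28.9% lower. In Notch3 +/- arrays, 7 of 11 tested passed, 3 higher and 4 lower in brain, against 26.5% higher and 25.2% lower among all tested. The median log2 difference of the tested receptor probe sets was 0.30 in Notch3 -/- and 0.10 in Notch3 +/- arrays, and that of all probe sets tested 0.11 and 0.07. More than 1 in 2 of all probe sets tested passed in each comparison, so the receptors' share is no finding about the group. Of 11 receptor probe sets tested in both genotypes, 6, of 4 genes, passed with the same sign in each (54.5%), against 48.1% of the 21604 probe sets tested in both. In Notch3 -/-, Ednrb 1423594_a_at and Ramp1 1447474_at met the filter on dim probe sets through brain alone. Htr1b 1442077_at met it through aorta alone. The counts above include such probe sets, for which the filter favoured the tissue where they are brighter. The sort, the RNA extraction and the mix of cells all differed with tissue and cannot be told apart from it.

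In brain cells, 0 of 12 probe sets tested passed between Notch3 -/- and Notch3 +/-, where 0.142% of all tested did. Of the 12, 5 were above 0 and 7 below, with a median log2 difference of -0.08 against 0.01 for all tested, and 2 had an unadjusted p under 0.05 (Htr1b 1442077_at and Tbxa2r), as did 2115 of all tested (9.39%). Groups did not overlap in 1 of the 12, against 3.3% of all tested. In aorta 0 of 11 passed, and 0% of all 22519 tested did by limma, although 980 of them (4.35%) had an unadjusted p under 0.05, among them 1 receptor probe set (Htr1b 1442077_at). The median there was -0.11 against 0.00 for all tested, and groups did not overlap in 1 of 11, against 9.47% of all tested. Over all receptor probe sets tested, the 95% intervals had their lowest end at -1.31 and their highest at 0.77 on the log2 scale in brain, and at -0.90 and 0.76 in aorta. In these bulk samples, fewer cells of a type and less RNA per cell cannot be told apart.

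**Figure D2:**
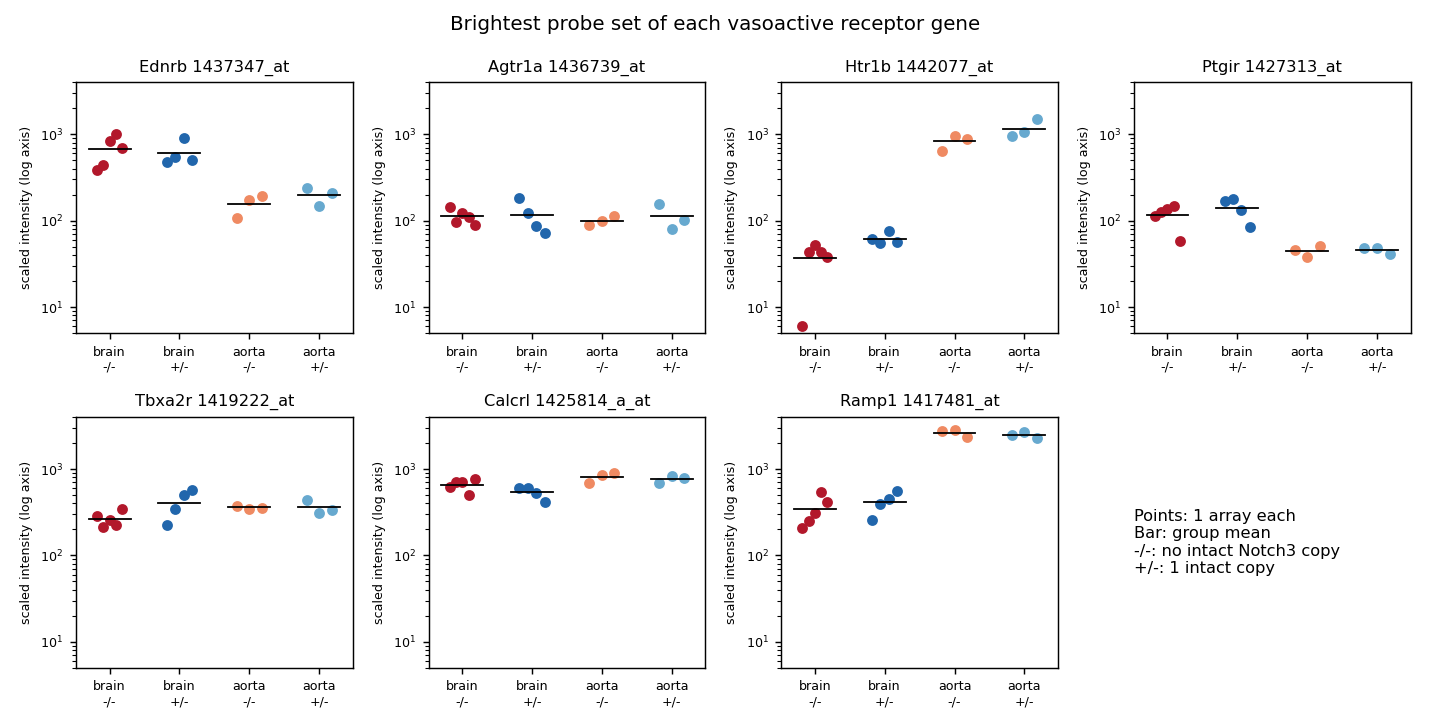
Scaled intensity (log axis) of 1 probe set for each of the 7 receptor genes, by array (points) with the group mean (bar), in brain and aorta arrays of both genotypes. Htr1b and Ramp1 arrays of brain lay below all aorta arrays of the same genotype, Ednrb and Ptgir arrays of brain lay above them, and genotypes overlapped in most panels.

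Ednrb, which on smooth muscle can contract and on endothelium releases relaxing factors, was brighter in brain cells. At 1437347_at it had 385, 436, 834, 1005 and 692 in Notch3 -/- brain arrays A, B, C, D and F, against 106, 174 and 191 in Notch3 -/- aorta arrays. In Notch3 +/- it had 481, 539, 901 and 500 in brain arrays E, G, I and H, against 241, 147 and 208 in aorta arrays 5556, 5561 and 6166. Every brain array lay above every aorta array, and within brain the genotypes overlapped, with the highest values in Notch3 -/- array D and Notch3 +/- array I. The log2 difference of brain over aorta was 1.93 in Notch3 -/- (SE 0.28, a 3.82-fold difference, limma adjusted p = 5.05e-05) and 1.51 in Notch3 +/- (SE 0.24, 2.85-fold, adjusted p = 0.000398).

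A further Ednrb probe set, 1423594_a_at, gave the same order of tissues. Its means were 162 ± 25.8 in brain and 35.4 ± 2.27 in aorta of Notch3 -/- mice (SD, n = 5 and 3), a log2 difference of 1.78 (limma adjusted p = 9.92e-07). In Notch3 +/- they were 175 ± 62.2 in brain and 43.1 ± 6.34 in aorta (SD, n = 4 and 3), a difference of 1.64 (adjusted p = 0.000327). In Notch3 -/- it passed the filter on dim probe sets through brain alone. The remaining Ednrb probe set, 1426314_at, overlapped between tissues, with 47.3 to 90.7 in brain and 28.0 to 62.1 in aorta of Notch3 -/-, and 67.9 to 107 and 42.6 to 77.5 in Notch3 +/-. Its differences were 0.46 (95% interval -0.06 to 0.99, limma adjusted p = 0.114) and 0.37 (-0.14 to 0.89, adjusted p = 0.2).

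Between genotypes, Ednrb at 1437347_at differed by 0.10 in brain (95% interval -0.48 to 0.69, limma adjusted p = 0.94) and by -0.32 in aorta (-0.84 to 0.20, adjusted p = 0.999). At 1423594_a_at the 3 Notch3 -/- aorta arrays, with 35.8, 37.4 and 32.9, lay just below the 3 Notch3 +/- arrays, with 49.99, 37.5 and 41.9. That was the only receptor probe set tested whose genotypes did not overlap in aorta, and it passed the filter there through the Notch3 +/- arrays alone. Its difference was -0.20 (SE 0.16, limma adjusted p = 0.999).

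Sequences upstream of the start are shown for the 4 genes with a probe set whose tissue difference passed with the same sign in both genotypes. Members that were higher and lower in brain at those probe sets can thus be set side by side. Each is the 250 bases before the annotated start in RefSeq (GRCm38.p6), read 5′ to 3′ on the gene's strand, with TGGGAA or its reverse complement TTCCCA, the core of the sites bound by the Notch effector RBPJ, in capitals. Ednrb lies at chr14:103843702-103843951 on the minus strand, Ptgir at chr7:16906240-16906489 on the plus strand, Htr1b at chr9:81633833-81634082 on the minus strand and Ramp1 at chr1:91179572-91179821 on the plus strand.
Ednrb: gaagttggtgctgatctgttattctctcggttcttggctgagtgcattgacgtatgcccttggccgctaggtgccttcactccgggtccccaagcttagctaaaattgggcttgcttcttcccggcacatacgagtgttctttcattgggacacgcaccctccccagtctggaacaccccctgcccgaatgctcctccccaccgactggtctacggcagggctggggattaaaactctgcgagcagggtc
Ptgir: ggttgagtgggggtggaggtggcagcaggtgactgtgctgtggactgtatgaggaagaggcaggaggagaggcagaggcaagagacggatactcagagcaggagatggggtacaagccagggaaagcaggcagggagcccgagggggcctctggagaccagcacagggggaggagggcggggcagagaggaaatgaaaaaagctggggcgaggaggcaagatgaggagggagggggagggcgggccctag
Htr1b: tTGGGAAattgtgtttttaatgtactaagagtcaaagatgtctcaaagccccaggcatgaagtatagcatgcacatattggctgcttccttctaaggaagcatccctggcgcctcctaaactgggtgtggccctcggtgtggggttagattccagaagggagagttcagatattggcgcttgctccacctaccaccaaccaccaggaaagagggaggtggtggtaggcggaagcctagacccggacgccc
Ramp1: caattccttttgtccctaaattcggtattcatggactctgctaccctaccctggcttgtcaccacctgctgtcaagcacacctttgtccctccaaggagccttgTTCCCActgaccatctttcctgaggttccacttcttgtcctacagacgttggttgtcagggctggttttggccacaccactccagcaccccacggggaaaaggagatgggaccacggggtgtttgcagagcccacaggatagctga

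The Htr1b match began 249 bases before the start on the gene's strand, and the Ramp1 match ended 141 bases before it on the opposite strand. Ednrb and Ptgir held no match in these 250 bases. Of 32851 promoters in the same table, 7094 (21.6%) held the motif on either strand, and 5 of 9 promoters of the 8 listed genes with an entry did. Those 9 include 2 of Tbxa2r, both with the motif, and the promoters of Ednra and Adra2a, whose expression was not analysed. The CArG box, the site of serum response factor in smooth muscle genes, was searched by its consensus and found in 482 of all promoters (1.47%) and in 0 of these 9. A match is a description of letters, not of binding.

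Agtr1a, the main receptor through which angiotensin II contracts vessels in mice, passed the test in none of the 5 comparisons. Its only probe set, 1436739_at, had 89.6 to 145 in Notch3 -/- brain arrays, 71.7 to 183 in Notch3 +/- brain arrays, 88.1 to 115 in Notch3 -/- aorta and 80.5 to 156 in Notch3 +/- aorta. All 4 groups overlapped. The log2 difference of brain over aorta was 0.14 in Notch3 -/- (95% interval -0.24 to 0.53, limma adjusted p = 0.504) and 0.01 in Notch3 +/- (-0.65 to 0.67, adjusted p = 0.977). Between genotypes it was 0.02 in brain (-0.48 to 0.52) and -0.11 in aorta (-0.58 to 0.37).

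Htr1b had the largest tissue difference among the receptor probe sets tested. At 1442077_at it had 6.09, 43.2, 51.9, 43.5 and 37.9 in Notch3 -/- brain arrays A, B, C, D and F, against 647, 953 and 881 in Notch3 -/- aorta arrays 5558, 5559 and 6167. In Notch3 +/- it had 61.3, 54.8, 75.4 and 56.0 in brain arrays E, G, I and H, against 945, 1050 and 1490 in aorta arrays 5556, 5561 and 6166. The brain arrays were dim throughout and the aorta arrays bright, with no overlap. The log2 difference of brain over aorta was -4.08 in Notch3 -/- (SE 0.31, 16.9-fold lower, limma adjusted p = 8.48e-08) and -3.90 in Notch3 +/- (SE 0.20, 14.9-fold lower, adjusted p = 1.05e-07). In Notch3 -/- it passed the filter on dim probe sets through aorta alone.

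Both genotype comparisons put this Htr1b probe set lower in Notch3 -/-, and neither passed. In brain all 5 Notch3 -/- arrays lay below all 4 Notch3 +/- arrays, with means of 36.5 ± 17.7 and 61.9 ± 9.44 (SD), a log2 difference of -0.66 (95% interval -1.31 to -0.01, limma unadjusted p = 0.0467, adjusted p = 0.521). It was the receptor probe set whose genotypes did not overlap there, and it passed the filter through the Notch3 +/- arrays alone. In aorta the means were 827 ± 160 and 1162 ± 289 (SD, n = 3 each), a difference of -0.47 (-0.90 to -0.05, limma unadjusted p = 0.0324, adjusted p = 0.999), and Notch3 -/- array 5559 overlapped Notch3 +/- array 5556. Smooth muscle markers moved with genotype in brain, where all 5 tested were lower in Notch3 -/- and 3 passed limma's test. In aorta 1 of 6 was lower and 0 passed. Other marker lists also moved with genotype in brain. Of 5 fibroblast markers tested there, 1 was lower in Notch3 -/-, and the median log2 difference was 0.89. By limma, 4 of them had an unadjusted p under 0.05 and 0 passed. Of 8 pericyte markers 6 were lower, with a median of -0.36, and 0 passed. The part of these markers in the brain values of Htr1b was not tested.

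The other Htr1b probe set, 1422288_at, ran the opposite way between tissues. It had 144 to 277 in brain and 101 to 156 in aorta of Notch3 -/- mice, overlapping, with a log2 difference of 0.57 (95% interval 0.13 to 1.01, limma adjusted p = 0.0257). The Notch3 +/- values were 112 to 304 in brain and 118 to 144 in aorta, a difference of 0.55 (-0.05 to 1.16, adjusted p = 0.116). The call in Notch3 -/- was lost without aorta array 5558 (adjusted p = 0.0888) or 5559 (0.119) and with all 15 arrays in 1 fit (0.0538), and in Notch3 +/- it was gained without brain array G (0.00823). The probe sets of Htr1b thus disagreed in sign, and the table does not say which transcript parts they read.

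Ptgir, through which prostacyclin relaxes smooth muscle, was higher in brain cells. Its only probe set, 1427313_at, had 113, 126, 138, 148 and 58.5 in Notch3 -/- brain arrays A, B, C, D and F, against 45.6, 37.8 and 51.5 in Notch3 -/- aorta arrays. The Notch3 +/- arrays had 171, 179, 133 and 84.9 in brain arrays E, G, I and H, against 47.7, 48.5 and 40.6 in aorta arrays. All brain arrays exceeded all aorta arrays, with array F nearest to them. The log2 difference of brain over aorta was 1.08 in Notch3 -/- (SE 0.24, 2.11-fold, limma adjusted p = 0.00154) and 1.32 in Notch3 +/- (SE 0.25, 2.49-fold, adjusted p = 0.00109). Between genotypes it was -0.26 in brain (95% interval -0.80 to 0.29, limma adjusted p = 0.792) and -0.02 in aorta (-0.39 to 0.35, adjusted p = 0.999).

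Tbxa2r, the constrictor counterpart of Ptgir among prostanoid receptors, had no stable tissue difference. At 1419222_at it had 285, 212, 254, 225 and 342 in Notch3 -/- brain arrays A, B, C, D and F, against 225, 344, 498 and 566 in Notch3 +/- brain arrays E, G, I and H. Aorta arrays had 377, 349 and 354 in Notch3 -/-, against 441, 309 and 335 in Notch3 +/-. Within brain, arrays I and H were highest, while Notch3 +/- array E lay among the Notch3 -/- arrays. The genotype difference was -0.54 in brain (SE 0.24, 95% interval -1.05 to -0.03, limma unadjusted p = 0.04, adjusted p = 0.508) and 0.01 in aorta (-0.30 to 0.32, adjusted p = 0.999). Array H also had the highest sums of the brain arrays for smooth muscle (38939), pericyte (56792) and astrocyte markers (23520). Array I had the lowest smooth muscle sum of the Notch3 +/- brain arrays (22391), with 25412 in E and 24086 in G. Pericyte and astrocyte sums were 26909 and 8476 in E, 40134 and 15462 in G, and 35690 and 14529 in I. The part of such markers in the difference was not tested.

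Between tissues, Tbxa2r was lower in Notch3 -/- brain than in Notch3 -/- aorta, with a log2 difference of -0.44 (SE 0.16, limma adjusted p = 0.0264), and the difference in Notch3 +/- was 0.10 (95% interval -0.52 to 0.73, adjusted p = 0.78). The call in Notch3 -/- was lost under quantile normalization (adjusted p = 0.0619), with all 15 arrays in 1 fit (0.105) and without B (0.05003), D (0.0537), 5558 (0.093), 5559 (0.0586) or 6167 (0.0618).

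Calcrl, the peptide-binding subunit of the receptor for calcitonin gene-related peptide, was bright in every group. At 1425814_a_at it had 621, 710, 712, 503 and 760 in Notch3 -/- brain arrays A, B, C, D and F, against 688, 854 and 901 in Notch3 -/- aorta arrays. Among Notch3 +/- arrays it had 600.2, 605, 523 and 421 in brain arrays E, G, I and H, against 689, 826 and 796 in aorta arrays. Tissues overlapped in Notch3 -/- and not in Notch3 +/-. The log2 difference of brain over aorta was -0.30 in Notch3 -/- (95% interval -0.63 to 0.03, limma adjusted p = 0.107) and -0.52 in Notch3 +/- (-0.90 to -0.14, adjusted p = 0.0269), the second lost without aorta array 5561 (0.106) or 6166 (0.0959). Between genotypes it was 0.29 in brain (-0.07 to 0.65, adjusted p = 0.613) and 0.07 in aorta (-0.20 to 0.35, adjusted p = 0.999).

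The other Calcrl probe sets were below the filter in every comparison. Over all 15 arrays 1418489_a_at ran from 7.86 to 55.9 and 1459536_at from 1.24 to 14.0, and neither was tested.

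Ramp1, whose protein carries the calcitonin receptor-like receptor to the cell surface and sets its preference for calcitonin gene-related peptide, was far brighter in aorta. At 1417481_at it had 207, 250.3, 313, 536 and 416 in Notch3 -/- brain arrays A, B, C, D and F, against 2733, 2827 and 2327 in Notch3 -/- aorta arrays. Notch3 +/- arrays had 259, 396, 448 and 555 in brain arrays E, G, I and H, against 2454, 2707 and 2311 in aorta arrays. The aorta arrays lay close together and above every brain array. The log2 difference of brain over aorta was -2.95 in Notch3 -/- (SE 0.24, 7.71-fold lower, limma adjusted p = 1.94e-07) and -2.59 in Notch3 +/- (SE 0.23, 6.01-fold lower, adjusted p = 5.26e-06). Between genotypes it was -0.28 in brain (95% interval -0.85 to 0.29, limma adjusted p = 0.779) and 0.08 in aorta (-0.14 to 0.29, adjusted p = 0.999).

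The remaining Ramp1 probe sets disagreed with each other. At 1431413_at brain was lower in both genotypes, with 64.2 to 111 in brain and 107 to 258 in aorta of Notch3 -/- (log2 difference -0.70, limma adjusted p = 0.026), and 74.1 to 99.6 and 103 to 169 in Notch3 +/- (-0.65, adjusted p = 0.0253). Without aorta array 5558, which held the 258, the Notch3 -/- difference was -0.34 (adjusted p = 0.213). That call was also lost without B (0.0548) and with no filter (0.0519), and the Notch3 +/- call without E (0.0522), 5556 (0.115) or 6166 (0.114). At 1447474_at brain was higher in Notch3 -/-, with 50.3 to 133 in brain and 11.03 to 26.3 in aorta (difference 1.60, adjusted p = 0.000183), where it passed the filter through brain alone. In Notch3 +/- it had 51.5 to 81.6 in brain and 7.50 to 20.7 in aorta, and it was not tested there because it fell below the filter.

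**Figure D3:**
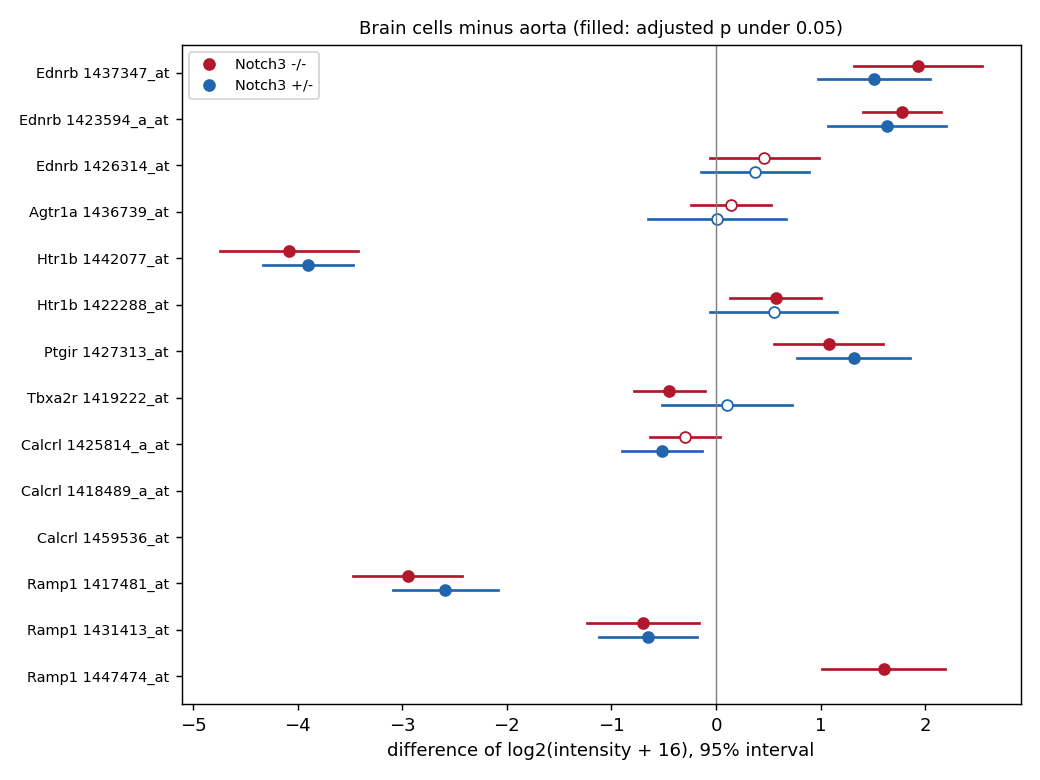
Log2 difference of brain cells over aorta with its 95% interval for each receptor probe set tested, in Notch3 -/- and Notch3 +/- arrays; filled points passed an adjusted p of 0.05. Htr1b 1442077_at lay at -4.08 and -3.90 and Ramp1 1417481_at at -2.95 and -2.59, while Ednrb 1437347_at lay at 1.93 and 1.51.

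**Figure D4:**
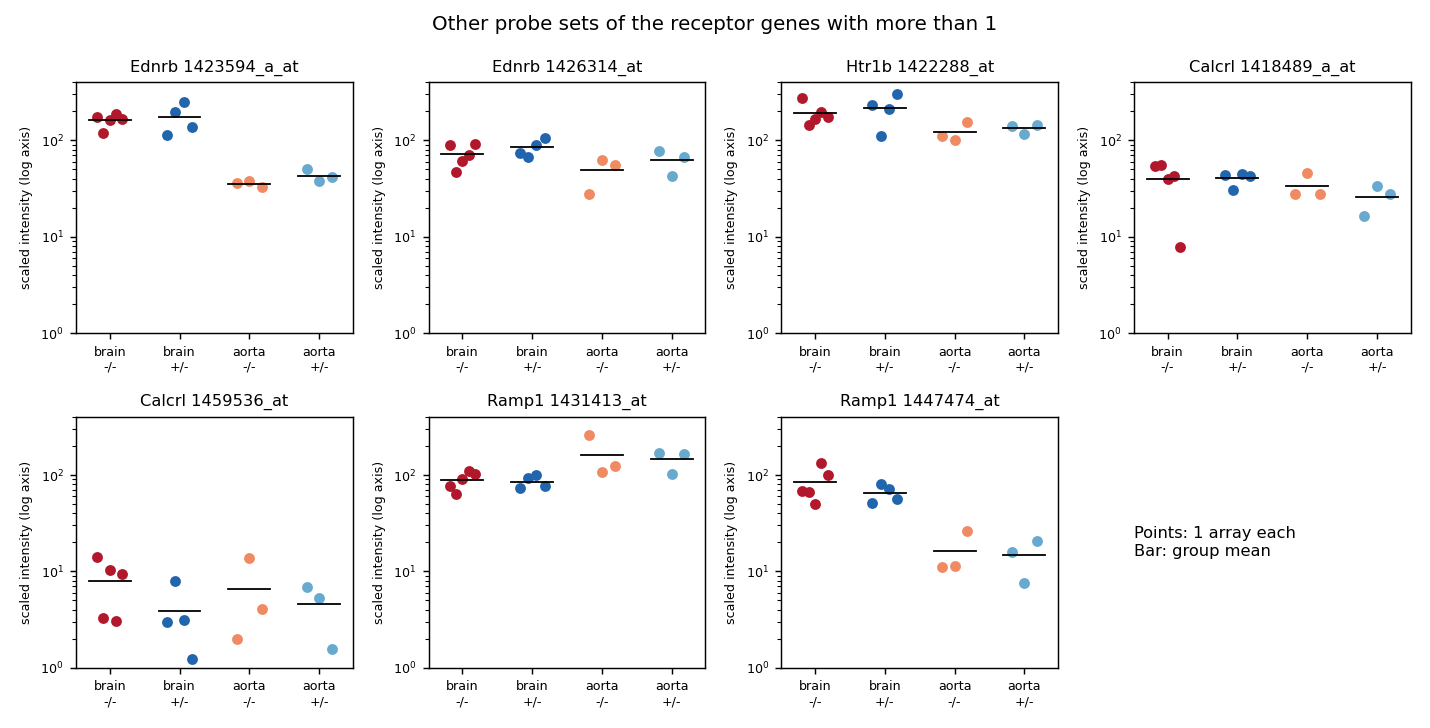
Scaled intensity (log axis) of the other probe sets of the receptor genes that have more than 1, by array (points) with the group mean (bar). Htr1b 1422288_at and Ramp1 1447474_at were higher in brain arrays than in aorta on average, unlike Htr1b 1442077_at and Ramp1 1417481_at.

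Leaving out aorta array 5556, the Notch3 +/- array with brain-type markers, left 6 of the receptor probe sets past the threshold between tissues in that genotype. Ednrb 1437347_at then differed by 1.65 (limma adjusted p = 0.00101), Ptgir by 1.34 (0.00478), Htr1b 1442077_at by -4.03 (1.09e-06) and Ramp1 1417481_at by -2.60 (6.08e-05). Cell type markers moved with tissue beside all of these. In each genotype, 6 of 6 fibroblast markers were lower in brain. Higher in brain in each were 6 of 7 endothelial, 6 of 6 astrocyte and 4 of 4 oligodendrocyte markers tested. Of the smooth muscle markers tested, 4 of 5 were lower in brain in Notch3 -/- and 5 of 6 in Notch3 +/-. Of 8 pericyte markers, 5 passed as higher and 2 as lower in brain in Notch3 -/-. In Notch3 +/-, 6 passed as higher and 1 as lower. Their part in the receptor differences was not tested. Smooth muscle sums in aorta were 33582 to 37435 in Notch3 -/- and 33704 to 36738 in Notch3 +/-. Fibroblast sums were 1786 to 4662 in brain and 26855 to 28697 in aorta of Notch3 -/-, and 1087 to 1834 and 26273 to 28765 in Notch3 +/-.

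Whether Notch3 genotype acted differently in brain and aorta was tested as a difference of differences over the 15 arrays. No receptor probe set passed of 12 tested, against 0.0178% of all tested, and 0 had an unadjusted p under 0.05 by limma. The effect in brain minus that in aorta was -0.55 for Tbxa2r (95% interval -1.25 to 0.15, limma adjusted p = 0.997), 0.42 for Ednrb 1437347_at (-0.45 to 1.30) and -0.18 for Htr1b 1442077_at (-1.04 to 0.67). For these receptors no difference of effect between tissues was detectable, and intervals of this width leave room for differences of over 1 on the log2 scale.

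**Figure D5:**
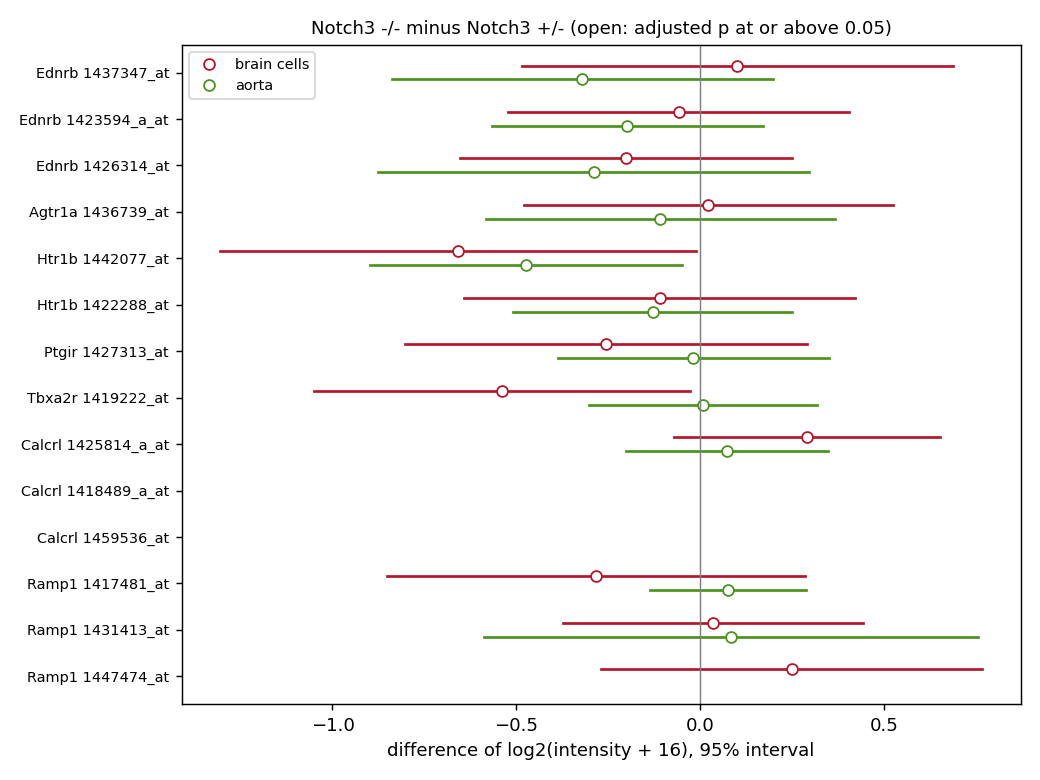
Log2 difference of Notch3 -/- over Notch3 +/- with its 95% interval for each receptor probe set in brain cells and aorta; a line with no point was not tested, and every point is open because no adjusted p was under 0.05. Intervals of Htr1b 1442077_at (both tissues) and Tbxa2r (brain) lay below 0 before adjustment.

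In the wider pathway, genes passed the test between tissues and 0 passed it between genotypes by limma. Of the ligands and their enzymes, 14 were tested in brain and 13 in aorta and 0 passed between genotypes (2 and 1 had an unadjusted p under 0.05), with median log2 differences of -0.01 and -0.07. Of the other vasoactive receptors, 13 and 17 were tested and 0 passed (0 in each at an unadjusted p under 0.05), with medians of 0.02 and -0.07. Of G proteins and effectors, 38 and 37 were tested and 0 passed (5 and 2 unadjusted), with medians of -0.01 and -0.02. The medians of all probe sets tested were 0.01 in brain and 0.00 in aorta.

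Between tissues, 10 of the 14 ligands and enzymes tested in both genotypes (18 were measured) passed with 1 sign in each, 7 higher and 3 lower in brain, where 48.1% of all probe sets tested in both did. The pathway lists take the brightest probe set per gene. The 48.1% is over all probe sets, dimmer ones of the same gene and those without a symbol among them, so these shares are not of like kind. Edn1 encodes the precursor of endothelin-1, the peptide that Ednrb's protein binds. Edn1 averaged 1265 ± 492.9 in brain and 249 ± 94.4 in aorta of Notch3 -/- mice (SD, n = 5 and 3), a log2 difference of 2.26. The Notch3 +/- difference was 2.24. Edn3, the endothelin-3 precursor, differed by 1.30 in Notch3 -/- and 1.41 in Notch3 +/-. Ptgis, the enzyme that makes prostacyclin for the Ptgir receptor, ran the other way, with 2020.5 ± 397 in brain and 8152 ± 701 in aorta of Notch3 -/- (SD, n = 5 and 3), a difference of -2.03, and -1.54 in Notch3 +/-. Ptgs2, the inducible cyclooxygenase upstream of prostacyclin and thromboxane, was higher in brain by 2.63 and 2.07. Agt, the angiotensin precursor, averaged 341 ± 158 in brain and 3.90 ± 0.86 in aorta of Notch3 -/- (SD, n = 5 and 3), and differed by 4.04 in Notch3 -/- and 4.36 in Notch3 +/-. Agt passed the filter through brain alone, and with aorta this dim the size of its difference depends on the pseudocount (6.004 and 6.42 with a pseudocount of 1). Ddc, the decarboxylase of serotonin and dopamine synthesis, was higher by 4.70 and 3.71, and in Notch3 -/- it passed the filter through brain alone. Array 5556 held 369 for Ddc, and the Notch3 +/- difference was 4.70 without it. All 6 passed limma's test in both genotypes at adjusted p of 5%.

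Of 15 other vasoactive receptors tested in both genotypes (40 were measured), 10 passed with 1 sign in each, 6 higher and 4 lower in brain, beside the same 48.1% of all probe sets. Ramp3, a further partner of the Calcrl protein that turns it into an adrenomedullin receptor, averaged 219.8 ± 50.7 in brain and 42.1 ± 11.9 in aorta of Notch3 -/- (SD, n = 5 and 3), a log2 difference of 2.01 (limma adjusted p = 1.93e-06), and of 2.38 in Notch3 +/- (6.81e-06). Ramp3 was thus higher and Ramp1 (1417481_at) lower in brain than in aorta in both genotypes. Adcyap1r1, the receptor of the dilator peptide PACAP, was higher in brain by 3.47 and 3.36, Aplnr, the apelin receptor, by 3.02 and 2.11, and Hrh1, the histamine H1 receptor, by 1.65 and 1.67 in Notch3 -/- and Notch3 +/-. Ramp3 and Hrh1 passed the filter through brain alone in both genotypes. Npr2, the receptor of C-type natriuretic peptide, was lower in brain, with log2 differences of -1.68 and -1.71, as was Npy1r, the neuropeptide Y receptor that contracts vessels, with -1.36 and -1.58.

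Of 37 G proteins and effectors tested in both genotypes (40 were measured), 22 passed with 1 sign in each (59.5%), 13 higher and 9 lower in brain, beside 48.1% of all probe sets. No test set these lists against other genes. Adenylyl cyclases, which make the cyclic AMP raised by the prostacyclin and calcitonin gene-related peptide receptors, fell on both sides. Adcy7 averaged 319.7 ± 183 in brain and 3768 ± 226 in aorta of Notch3 -/- mice (SD, n = 5 and 3), a log2 difference of -3.69, and -4.30 in Notch3 +/-. Adcy5 was also lower in brain, with log2 differences of -2.36 and -1.85. Adcy1 was higher by 2.45 and 2.16, Adcy2 by 2.21 and 2.18, and Adcy4 by 2.06 and 2.11. Prkar1a, a regulatory subunit of the cyclic AMP-dependent kinase, was higher by 2.13 in each genotype. All 12 genes named in these groups passed limma's test in both genotypes.

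The genes most like each receptor across the 15 arrays were taken by the smallest root mean square difference of centred log2 values among 19391 probe sets with 1 symbol. For Ednrb (1437347_at) they were Mfap3l (0.25) and Mapt (0.26), and for Ptgir Pnrc1 (0.24) and Ncapd3 (0.24). For Htr1b (1442077_at) they were Serpinh1 (0.38) and Cd9 (0.42), and for Ramp1 (1417481_at) Efhd1 (0.18) and Cav3 (0.23). The SD over arrays of the receptor probe sets was 0.98, 0.69, 2.10 and 1.46 in the same order. Likeness here is a description over 15 arrays in which tissue is the main contrast.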

How the data were processed

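The deposited values were linear probe-set intensity on Affymetrix mouse arrays, 1 array per sample, which the authors scaled to 150 as the target after hybridising 15 µg of cRNA, per the design text of the series. The 2% trimmed mean was 150 on every array. The probe summary algorithm, background correction and genome build are not stated in the labels or design text, and detection calls were not used. Brain RNA was bound to columns from lysed sorted cells, whereas aorta RNA was extracted with Trizol first, per the labels.

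Of 45101 probe sets, 34958 carried 1 symbol, 932 several and 9211 none; of those with 1 symbol, 34754 were updated through Entrez identifiers in a RefSeq table (GRCm38.p6) and 204 kept the older name. The 64 control probe sets were left out. Each value was converted to log2(value + 16), which makes the fold changes of dim probe sets too small. The brighter part of the probe sets, from the median of their mean log2 values upward, was tested in each fit (22519). Differences were fitted with limma 3.58.1 under R 4.3.3 (lmFit, then eBayes with trend, two-sided tests, Benjamini-Hochberg over all tested, threshold 5%): genotypes within 9 brain and within 6 aorta arrays, their difference over 15 arrays, and brain against aorta within each genotype (8 Notch3 -/- and 7 Notch3 +/- arrays). The fits were tested on simulated data. All probe sets of the listed genes were named. From each pathway list, at the brightest probe set per gene, genes past 5% in a genotype comparison and up to 6 with the largest tissue difference past 5% in both genotypes were named. The members and all lists were chosen with earlier results of these data known. The marker lists were smooth muscle, pericyte, endothelium, astrocyte, neuron, oligodendrocyte, microglia and macrophage, fibroblast and adipocyte. Summed pericyte markers were 25850 to 34565 in Notch3 -/- and 26909 to 56792 in Notch3 +/- brain arrays, and 19560 to 21432 and 17812 to 20111 in aorta. Astrocyte sums were 12827 to 18977, 8476 to 23520, 2164 to 2620 and 1933 to 3223 in the same order of groups, microglia and macrophage sums 8243 to 15195, 8066 to 13344, 2734 to 2946 and 2512 to 3573, and adipocyte sums 26.0 to 51.8, 30.3 to 58.6, 3123 to 5749 and 4133 to 6851. The brightest astrocyte marker, Gja1, averaged 11922.5, 11583, 2228 and 2306 in the same order of groups. Csf1r, the brightest microglia and macrophage marker, averaged 10705, 9697, 2160 and 2314. C1qa ran the other way, with means of 275, 299, 492 and 484, as did Aif1, with 28.0, 9.37, 51.3 and 41.4. The number of arrays limits the precision.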

Additional observations from a re-analysis of the deposited data

Results flagged for a closer look

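Low single arrays stood out in 3 of 28 receptor groups of 4 or 5 arrays examined, where chance gives about 1 in 20 groups. Htr1b 1442077_at had 6.09 in Notch3 -/- brain array A, far below the 37.9 to 51.9 of the other 4 arrays of that group. Calcrl 1418489_a_at had 7.86 in Notch3 -/- brain array F, against 40.05 to 55.9 in the other 4. Calcrl 1418489_a_at also had 30.5 in Notch3 +/- brain array G, against 42.3 to 44.4 in the other 3. Without array A, the brain genotype difference of Htr1b 1442077_at was the smallest of those that left out 1 array, at -0.37 on the log2 scale, against -0.66 with it.

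The loss of Notch3 signal in Notch3 -/- arrays was larger in brain than in aorta at 1421965_s_at, by -1.78 on the log2 scale (limma adjusted p = 0.0117). The call was lost without Notch3 +/- aorta array 5561 (adjusted p = 0.0683) or 6166 (0.0824).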

How the results depend on the processing

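The count of receptor probe sets past 5% was 0 in both genotype comparisons and in their difference under every alternative run. Between tissues it was 6 to 9 in Notch3 -/- and 5 to 8 in Notch3 +/- when 1 array was left out, and 7 to 9 and 7 to 8 under the other alternatives (no filter, a pseudocount of 1, quantile normalization, no intensity trend, array weights, all 15 arrays in 1 fit). Of 856 values of single receptor probe sets, 783 kept their direction and side of the threshold, 18 lost it, 2 gained it and 53 changed sign, the last in 18 results of which 0 passed 5% in any setting. The named pathway genes changed in 0 of 486. Calls lost or gained among probe sets tested with the filter stand beside the results, with these exceptions. Ednrb 1426314_at in Notch3 -/- passed without brain array B (limma adjusted p = 0.0498). Notch3 1421965_s_at in aorta had a limma adjusted p of 0.135, which fell to 0.0168 without array 6167 and 0.000758 with all 15 arrays. Between tissues in Notch3 +/-, 8 receptor probe sets passed with no filter, against 7, though no probe set tested with the filter gained a call. That count thus takes in a receptor probe set below the filter. Those below it were Calcrl 1418489_a_at, Calcrl 1459536_at and Ramp1 1447474_at. Without aorta array 5561, 7 passed although Calcrl 1425814_a_at lost its call. With array weights the sign turned for Agtr1a (-0.11) and Htr1b 1422288_at (0.085) between genotypes in brain, Tbxa2r in aorta (-0.013), Htr1b 1442077_at in the difference of effects (0.00084) and Tbxa2r between tissues in Notch3 +/- (-0.057). With quantile normalization it turned for Htr1b 1422288_at in the difference of effects (-0.0031) and Agtr1a between tissues in Notch3 +/- (-0.059). Leaving out 1 array turned it in these ranges of log2 difference. Between genotypes in brain they were -0.065 to 0.30 for Ednrb 1437347_at, -0.22 to 0.13 for 1423594_a_at, -0.15 to 0.24 for Agtr1a, -0.37 to 0.072 for Htr1b 1422288_at and -0.038 to 0.13 for Ramp1 1431413_at. In aorta they were -0.29 to 0.12 for Agtr1a, -0.094 to 0.069 for Ptgir, -0.093 to 0.15 for Tbxa2r, -0.0029 to 0.19 for Calcrl and -0.27 to 0.31 for Ramp1 1431413_at. In the difference of effects they were -0.025 to 0.32 for Ednrb 1423594_a_at, -0.17 to 0.28 for 1426314_at, -0.0998 to 0.35 for Agtr1a, -0.38 to 0.10 for Htr1b 1442077_at, -0.24 to 0.20 for 1422288_at and -0.28 to 0.30 for Ramp1 1431413_at. Between tissues in Notch3 +/- they were -0.21 to 0.24 for Agtr1a and -0.076 to 0.35 for Tbxa2r. The cause was not tested. Over all probe sets, the brain genotype count of 32 was 18 with no filter, 52 with array weights, 130 with all 15 arrays and 10 to 38 without 1 array. The count of 4 in the difference of effects was 13 with array weights and 0 to 7 without 1 array, and that of 0 in aorta reached 7 without array 5556 or 6167. The aorta array names fall into a 55 and a 61 series, each with both genotypes; with that series as a block, 0 receptor probe sets and 0 of all passed in aorta by limma. No paired analysis was possible because no replicate name is shared between groups.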
